A study of Bos taurus with 12 samples.

Results

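Sperm DNA methylation at SEPTIN10, CHMP2B, SORCS3, OTUD7A and RNF180, which are genes of septin filaments, of membrane sorting and of ubiquitin transfer and removal, was described from a comparison of bulls (Bos taurus) in a low BFI and a high BFI group. The members are the tiles, meaning windows of 500 bp, whose closest annotated feature carries the description of one of these genes in the authors' deposited table. The rule found 30 of the 7290 listed tiles, with 11 for SEPTIN10, 8 for RNF180, 5 for OTUD7A and 3 each for SORCS3 and CHMP2B. These 5 genes are among 540 gene IDs that the table names. They were chosen with the results of this comparison known, so their values are a description and no test between the groups was added.

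The labels give 12 sperm samples, all from males, 6 in the low BFI and 6 in the high BFI group, with no age, breed or treatment, and BFI is not spelled out in them. The series relates sperm methylation to bull fertility. The assay was EM-seq, a form of whole-genome methylation sequencing that uses enzymes rather than bisulfite to convert cytosines without a methyl group, which are then read as T. The deposited table holds differences between the groups and no value of a single sample, so no level, depth or spread between samples can be given, and the sperm label could not be checked against marker loci. Whether the samples of a group are separate bulls is not stated in the labels.

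Septins are GTP-binding proteins that assemble into filaments and rings. In sperm, septin rings form the annulus, the boundary between midpiece and principal piece of the tail. CHMP2B is a subunit of ESCRT-III, the membrane-cutting machinery that forms multivesicular bodies, and SORCS3 belongs to the sortilin family of receptors with a VPS10 domain, known mainly from neurons. OTUD7A is a deubiquitinase of the OTU family, and RNF180 is a membrane-anchored E3 ubiquitin ligase of the RING finger type. Ubiquitin marks proteins for the proteasome or for sorting, and it is known in male germ cells for protein turnover during sperm maturation and for the removal of paternal mitochondria after fertilization. DNA of mature sperm is highly methylated outside CpG-rich promoters, and CpG islands at promoters are usually unmethylated.

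Each difference below has the value that stands in the authors' deposited table, which gives no unit, and is read as percentage points of methylation. The sources used here do not say which group was subtracted from which, so a sign is given as deposited and neither group is called the more methylated. A tile was counted as differing at a deposited q under 0.05 and a size of at least 10 percentage points. Standard errors (SE) and 95% intervals are approximate: they are what the deposited p implies when read as a two-sided normal test of the difference. They cover only the variation that the authors' test allowed for, and no source used here says whether that includes variation between bulls. Tiles start every 100 bp, so neighbours share 400 of their 500 bp and are not independent. Long stretches of the genome hold no listed tile. Such a stretch has no value here, so it cannot be called unchanged.

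SEPTIN10, RNF180, OTUD7A and SORCS3 had negative differences of several percentage points at every listed tile, and CHMP2B had small positive ones. Of the 30 tiles in the authors' deposited table, 29 had a q under 0.05, as did 71.8% of all listed tiles. Of the 30, 27 passed that q with a negative difference and 2 with a positive one, against 55.9% and 15.9% of all listed tiles. The counted tiles were 3 of SEPTIN10 and 1 of RNF180, all negative, where 2.78% of all listed tiles were counted and 2.63% were counted and negative. The median difference was -8.83 over the 30 tiles and -0.95 over all listed tiles, of which 71.6% were negative. The 27 tiles outside CHMP2B ran from -12.39 to -5.83 in the authors' deposited table. These shares and medians follow from the choice of the genes and carry no further evidence.

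**Figure D1:**
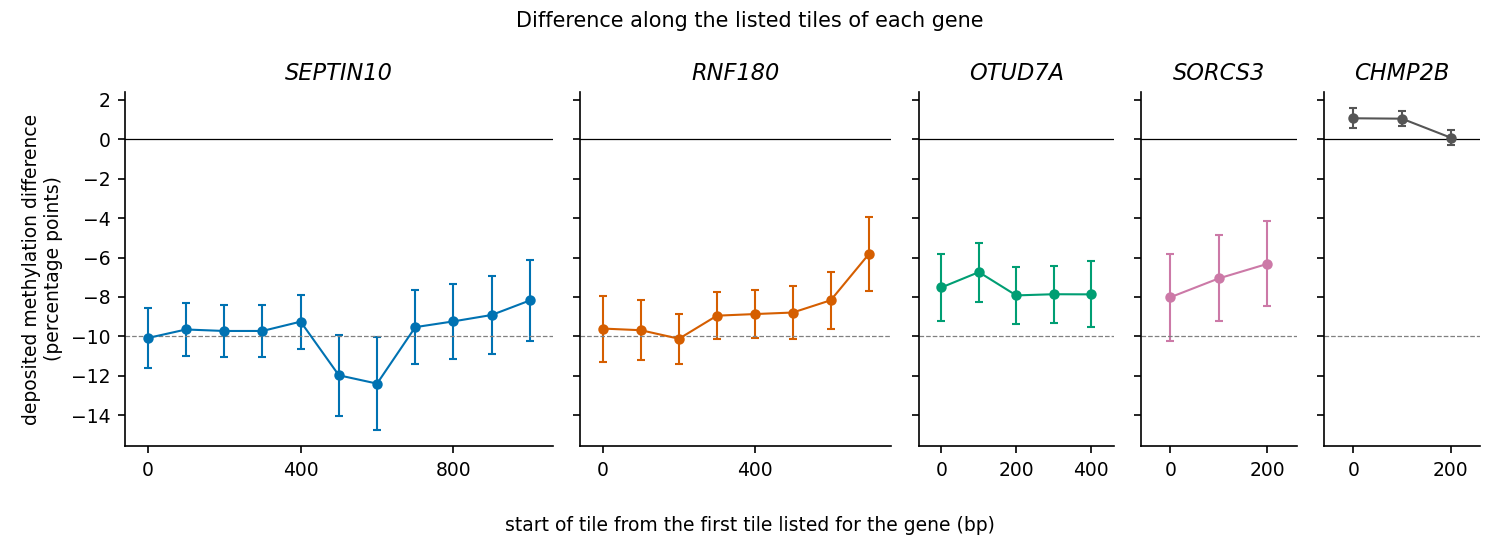
Deposited methylation difference (y axis, percentage points) of each listed tile against its start from the first tile of the gene (x axis, bp), 1 panel per gene. Bars are approximate 95% intervals implied by the deposited p, and the dashed line marks -10. SEPTIN10 dips to -12.39 within its run, RNF180 ends at -5.83, and CHMP2B lies near 0.

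SEPTIN10 (ENSBTAG00000022461) carried the largest difference of the 5 genes. Its 11 tiles start at every grid position of chromosome 11 from 44298601 to 44299601 on ARS-UCD1.2 (bosTau9), and the run of 1500 bp ends at 44300100. All lie within 1 intron, annotated from 44298402 to 44311536 on the forward strand, so that the first tile starts 199 bp after the start of an intron of 13135 bp. From the lowest to the highest position, the authors' deposited table gives -10.08, -9.65, -9.72, -9.72, -9.25, -11.97, -12.39, -9.53, -9.23, -8.91 and -8.18 percentage points. The values were thus nearly level over the first 5 tiles, lowest at the sixth and seventh, and closer to 0 after them.

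The largest SEPTIN10 difference and the smallest q were at different tiles. The tile from 44299201 to 44299700 was listed at -12.39 (95% interval -14.73 to -10.05, q = 4.64e-25) in the authors' deposited table. The smallest q, 2.21e-48, belonged to the tile from 44298801 to 44299300, at -9.72 (95% interval -11.02 to -8.42). The implied interval was wider at the tile with the larger difference. Between the fifth and the sixth tile the deposited difference moved by -2.72 percentage points, and between the seventh and the eighth by 2.86, although each pair shares 400 bp.

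The SEPTIN10 run holds 3 tiles that share no base. Their deposited differences were -10.08 (95% interval -11.61 to -8.55) from 44298601, -11.97 (-14.03 to -9.91) from 44299101 and -8.18 (-10.24 to -6.11) from 44299601. The interval of the middle tile overlaps both of the others, and the differences between the tiles were not tested. All 3 intervals lie below 0. No other listed tile lay within 50000 bp, and the closest was 817701 bp away nearest to a CpG island, where the authors' deposited table gives -7.56 percentage points.

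CHMP2B (ENSBTAG00000007939) differed from the other genes in position, sign and size. Its 3 tiles lie at the start of the gene on chromosome 1, between 35381201 and 35381900, over exon 1 (35381297 to 35381530, forward strand) and the 5′ UTR within it (35381297 to 35381496). The authors' deposited table lists 1.06 percentage points (SE 0.264, q = 4.98e-05) for the tile from 35381201, classed as promoter. The next tile, from 35381301, stood at 1.04 (SE 0.199, q = 2.98e-07), and the third, from 35381401, at 0.078 (95% interval -0.31 to 0.47, q = 0.194). The first and second tiles thus passed the q at about 1 percentage point, and the third did not.

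A CpG island of 406 bp, annotated from 35381097 to 35381502, covers the start of CHMP2B, and 2 further tiles listed for the island overlap the gene's own tiles. Those island tiles, from 35381001 and from 35381101, were listed by the authors' deposited table at 1.16 (q = 1.53e-05) and 1.21 (q = 1.14e-05). Ordered by position, the 5 tiles hold 404, 402, 302, 202 and 102 bp of the island. The difference was 1.04 to 1.21 over the first 4 of them and dropped only at the fifth, which extends farthest into the gene. The 95% intervals of the fourth tile (0.65 to 1.43) and the fifth (-0.31 to 0.47) do not overlap, although the tiles share 400 bp.

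**Figure D2:**
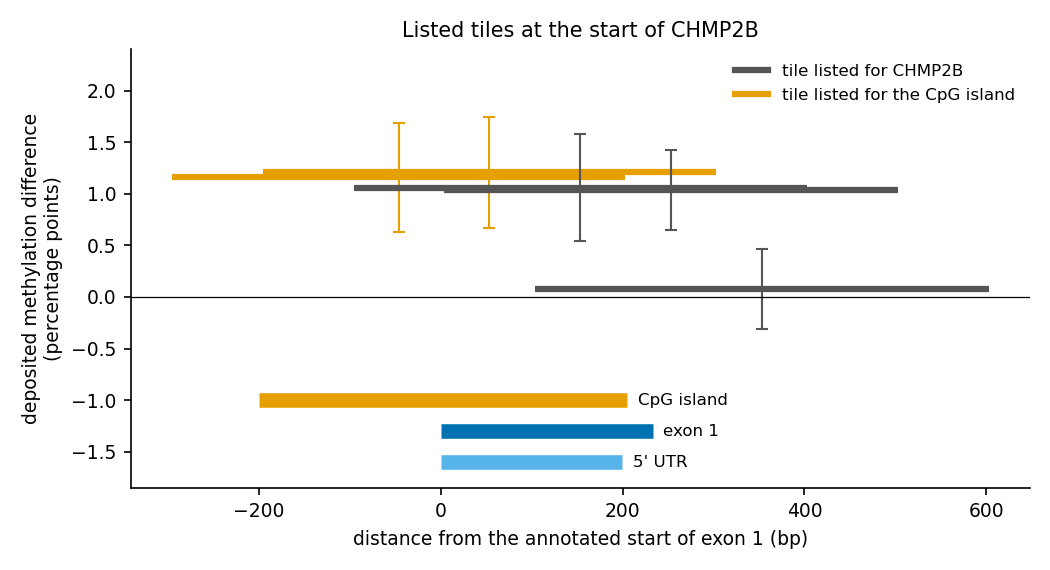
Deposited methylation difference (y axis, percentage points) of the 5 tiles listed around the start of CHMP2B, drawn as horizontal lines over the bases they cover (x axis, bp from the annotated start of exon 1), with approximate 95% intervals; the annotated CpG island, exon 1 and 5′ UTR are drawn below at no value. The first 4 tiles lie between 1.04 and 1.21 and the fifth at 0.078.

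SORCS3 (ENSBTAG00000004612) had 3 tiles in an intron on chromosome 26. They span 25967301 to 25968000 and lie inside an intron of 50363 bp on the forward strand (25951354 to 26001716), the first of them 15947 bp from its start. The deposited differences were -8.02 (SE 1.12, q = 4.44e-12), -7.06 (q = 8.18e-10) and -6.32 percentage points (q = 2.45e-08) by position. They move towards 0 along the run, but the interval of the first (-10.21 to -5.82) contains the value of the last. The other 50 tiles listed on chromosome 26 ran from -3.73 to 1.77 in the authors' deposited table, so all 3 SORCS3 tiles lay below every one of them. The closest of these was 290101 bp away.

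OTUD7A (ENSBTAG00000006868) carried an even run. Its 5 tiles on chromosome 21, from 30089901 to 30090800, lie in an intron of 76940 bp on the forward strand (30067589 to 30144528), starting 22312 bp into it. By position, the authors' deposited table gives -7.52, -6.74, -7.92, -7.86 and -7.87 percentage points, a range of 1.18. The largest difference, from 30090101 to 30090600, also had the smallest q of the run (SE 0.731, q = 5.18e-27). All 5 values lie within the 95% interval of that tile (-9.35 to -6.49). The 409 other tiles listed on chromosome 21 reached -16.99, so OTUD7A did not have the largest difference there, and the closest of them lay 643101 bp away.

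RNF180 (ENSBTAG00000043992) was the closest gene to 8 intergenic tiles rather than their host. The tiles span 15068701 to 15069900 on chromosome 20. The closest annotated feature is exon 7 of a transcript on the reverse strand (15106459 to 15107293), 36559 to 37259 bp away on its 3′ side. The authors' deposited table gives -9.60, -9.68, -10.12, -8.95, -8.86, -8.79, -8.16 and -5.83 percentage points by position, that is, from the far end of the run towards the gene. The largest difference, from 15068901 to 15069400 (SE 0.643, q = 2.58e-55), was the only counted one.

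The RNF180 tile closest to the gene had the difference of smallest size in its run. Its -5.83 in the authors' deposited table (95% interval -7.71 to -3.96, q = 3.09e-10) lay 2.33 percentage points above the tile before it. That interval does not overlap the one of the largest tile (-11.38 to -8.86), and these tiles share no base. It does overlap the interval of the tile before it (-9.60 to -6.73), and differences between the tiles were not tested. No other tile was listed within 1000000 bp, and the closest lay 4439901 bp away. The other 148 tiles of chromosome 20 reached -8.67 in the authors' deposited table, which 6 of the 8 RNF180 tiles exceeded in size.

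**Figure D3:**
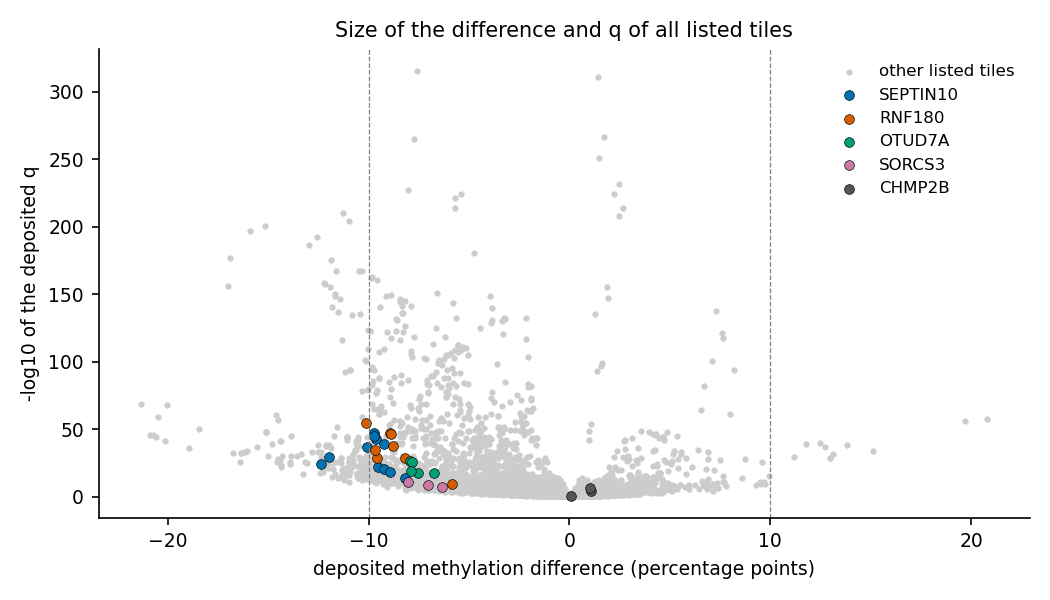
Deposited methylation difference (x axis, percentage points) against -log10 of the deposited q (y axis) for the listed tiles, with the tiles of the 5 genes in colour and dashed lines at 10 percentage points in either direction; 27 other tiles with a q listed as 0 are left out. The coloured tiles of SEPTIN10, RNF180, OTUD7A and SORCS3 lie between -12.39 and -5.83, and many grey tiles of the same size have a smaller q.

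By their largest tile, the genes ranked 8 (SEPTIN10), 18 (RNF180), 36 (SORCS3), 38 (OTUD7A) and 225 (CHMP2B) in size among the 540 genes. Differences between the genes were not tested, and intervals that overlap do not show that values are alike. The interval of the SEPTIN10 tile (-14.73 to -10.05) overlaps that of RNF180 (-11.38 to -8.86), and SORCS3 (-10.21 to -5.82) overlaps RNF180, OTUD7A (-9.35 to -6.49) and, at its edge, SEPTIN10. OTUD7A and SEPTIN10 do not overlap. CHMP2B (0.54 to 1.57) overlaps none of the others. The median of a gene's tiles put OTUD7A (-7.86) before SORCS3 (-7.06), after SEPTIN10 (-9.65) and RNF180 (-8.91).

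Runs of one sign were common in the table, and those of this size less so. Of 274 genes with at least 3 listed tiles, 75 (27.4%) had every tile negative at a q under 0.05. In 20 of the 274 genes (7.3%), every tile was negative at that q and at least 5 percentage points in size. A description, by which members were matched, is present for 15 of these 20. SEPTIN10, RNF180, OTUD7A and SORCS3 are among them. Ranked by median difference from the lowest, they took places 5, 9, 13 and 20, with CHMP2B at 257.

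**Figure D4:**
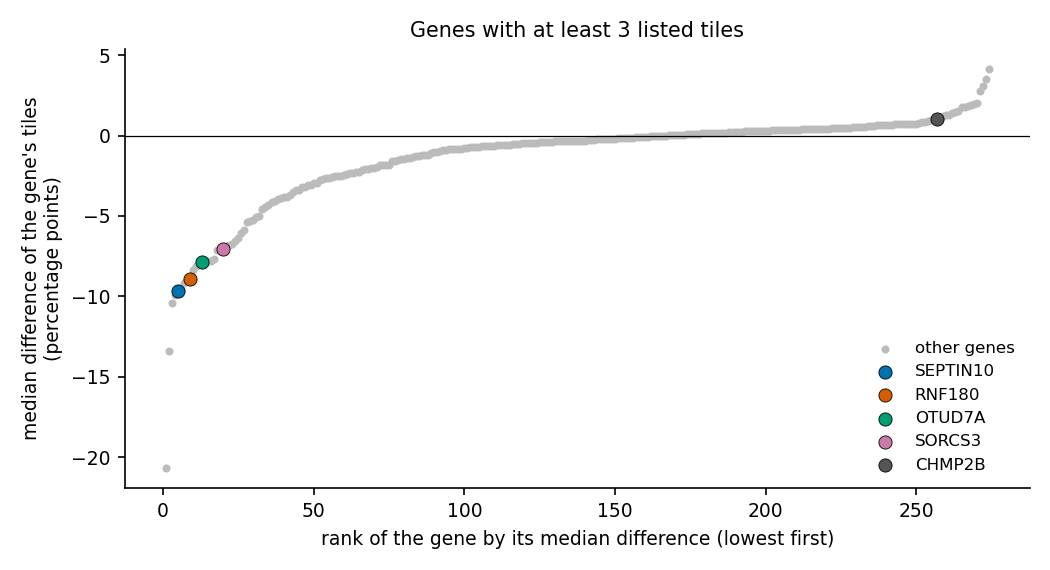
Median deposited difference over the listed tiles of a gene (y axis, percentage points) against the rank of that median (x axis) for the 274 genes with at least 3 listed tiles, with the 5 genes in colour. SEPTIN10, RNF180, OTUD7A and SORCS3 lie at the low end, at ranks 5 to 20, and CHMP2B at 257.

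The tiles of SEPTIN10, OTUD7A and SORCS3 share an intronic position. These genes were chosen with their differences known, so setting them beside other introns is a description and carries no further evidence. All 19 tiles lay within an annotated intron, ran from -12.39 to -6.32 in the authors' deposited table and passed the q. Tiles of the same run overlap, so the 19 are not separate observations. Of all 704 tiles within introns, 54.8% passed it with a negative difference. Over the 685 tiles within introns of other genes the median was -0.76, and 20.3% were at -5 or below. For RNF180, the 1101 other intergenic tiles with a closest gene had a median of -2.10, with 22.8% at -5 or below. The 443 tiles within exons, coding sequence or 5′ UTRs of other genes had a median of -0.11, with 3.84% at -5 or below, and CHMP2B is of this kind. Negative differences of at least 5 percentage points thus made up a larger share of the listed intronic and intergenic tiles than of those over exons.

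The other genes of the same pathways described here all had smaller largest differences than SEPTIN10, RNF180, SORCS3 and OTUD7A. Lists for septins, ESCRT, sorting, deubiquitinases and ubiquitin conjugation gave 25 genes reported here, 20 of them besides the 5 described. Of these 20, 16 had a tile under the q, and the largest such tile was negative in 12 and positive in 4. The other 4 had none, and 0 had a counted tile. Over all 540 genes, 73.3% had a tile under the q, 43.3% negative and 30% positive by the largest such tile, and 3.52% had a counted tile. The median of the largest difference was -0.62 over the 20 genes and -0.26 over all genes in the table.

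SEPTIN10 was the only septin that the table names. CHMP6, another ESCRT-III subunit, had 1 intronic tile, which the authors' deposited table puts at -0.84 (q = 0.000190), opposite in sign to CHMP2B. VPS16, a core subunit of the tethering complexes of endosomes and lysosomes, had -1.17 (q = 2.54e-10) in its 5′ UTR. AP1AR, which binds the AP-1 adaptor complex of vesicle coats, was listed at -1.98 (q = 0.0119), with a p of 0.0684. That deposited q is below the p, so AP1AR would not pass at a p of 0.05.

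Among deubiquitinases, USP3, which acts on histones, had the opposite sign to OTUD7A. Its largest tile, 156 bp from the 5′ UTR and classed as promoter, stood at 1.46 (q = 4.05e-08) in the authors' deposited table. MINDY2, which trims ubiquitin chains, had no tile under the q. A pair of genes of the multicopy USP17-like family, LOC790134 and LOC112446467, reached -4.00 and -3.96 in the authors' deposited table. Under the q, 15 of the 16 tiles of LOC790134 and 21 of the 21 tiles of LOC112446467 were negative. Reads of near-identical copies may be placed on one another. This was not tested, so these values are uncertain.

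Among the 14 genes on the list for ubiquitin conjugation and ligation, RNF180 had the largest difference. That list was filled by symbol and description, and it also holds UBAP2, described only as ubiquitin associated. The deposited table of the authors lists -3.73 (q = 0.000544) for UBE2D1, a ubiquitin-conjugating enzyme, at a tile 83853 bp from its exon. Its paralogue UBE2D3 had -1.64 (q = 0.000846) in an intron. FBXO16, an F-box gene with 30 tiles, was mixed: 11 were negative and 4 positive under the q, down to -3.79 percentage points near its 3′ UTR. A tile in the coding sequence of the TRIM64-like gene LOC112444922 had -5.31 (q = 0.000358). This gene is a multicopy family member, and read placement was not tested, so the value is uncertain.

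The remaining genes described here differed by less than 1.4 percentage points. FBXO8, an F-box gene, had 1.35 (q = 1.56e-10) and KLHL2, an adaptor of cullin ligases, 0.46 (q = 0.00337), both positive in the authors' deposited table. FBXO3 (-0.67, q = 0.000801), RNF187 (-0.56, q = 0.000286) and RNF167 (-0.37, q = 0.0427) were negative there, and the RNF167 q again lies below its p, which misses 0.05. UBAP2 passed the q at 1 of 3 tiles with a positive difference, and its largest, 0.23, did not pass. PELI2, a RING ligase, UBE2S, a ubiquitin-conjugating enzyme, and KLHL20, an adaptor of cullin ligases, had no tile under the q, at 0.28, -0.41 and 0.10 percentage points in the authors' deposited table.

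**Figure D5:**
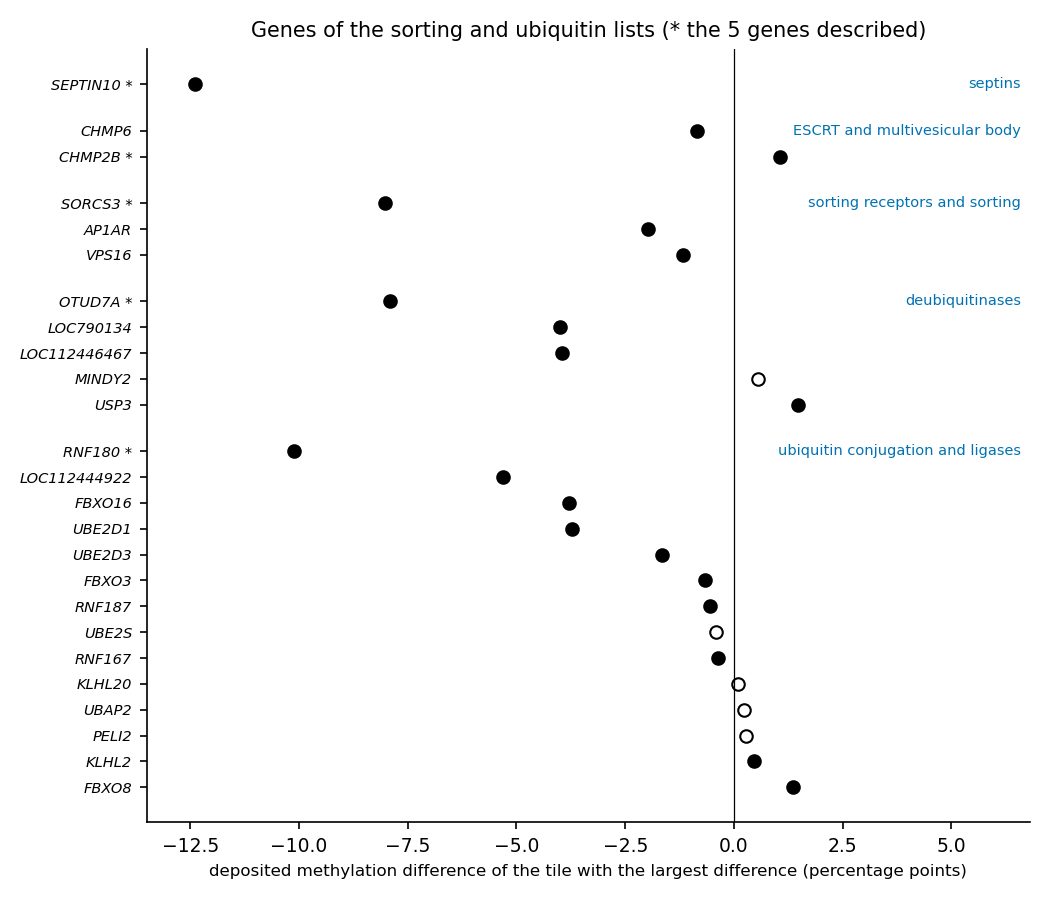
Deposited methylation difference of the largest tile (x axis, percentage points) for each of the 25 reported genes of the 5 lists (y axis, grouped by list), with a star at the 5 genes described; filled points have a q under 0.05 at that tile and open points do not. SEPTIN10 (-12.39), RNF180 (-10.12), SORCS3 (-8.02) and OTUD7A (-7.92) lie left of all other genes, the next being LOC112444922 at -5.31.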

How the data were processed

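Sperm DNA of 6 low BFI and 6 high BFI samples was compared by the authors in 1 table. Per the submitters' processing notes, Trimmomatic, Bismark and methylKit were used with the builds ARS-UCD1.2 and bosTau9. Versions, settings and the authors' test are not given in the sources used here. Each tile has a p-value and a q-value as well as a difference in methylation, per the file headers of the deposited table. That difference is a signed score, deposited without a unit and read as percentage points. There were 0 columns of values for single samples. The deposited q is below the deposited p at 5007 of 7290 tiles (7 of the 30 members), so a Benjamini-Hochberg adjustment of p was tried too.

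Members were matched by description, and members and lists were chosen with earlier results of these data known. Gaps run between nearest edges. SE is the size of the difference divided by the normal quantile of the p. Simulated p-values made by the same normal formula served to check the arithmetic. They cannot show whether the authors' p follows that formula. List genes were given 22 symbols by hand, all 22 on the same chromosome in RefSeq's gene table, and 3 by NCBI gene number; that table is of ARS-UCD2.0 and served for names alone. By the rule for named genes, each member is described at its largest tile, its smallest q and its tile nearest the feature, and each list gene at its largest tile, except 1 gene that is not reported here. Tables were computed with pandas 2.3.3, SciPy 1.17.1 and NumPy 2.4.6 in Python 3.11.15 and plotted with matplotlib 3.10.9.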

Additional observations from a re-analysis of the deposited data

How the results depend on the processing

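The 4 counted tiles of SEPTIN10 and RNF180 depended on the minimum size: 27 tiles passed with at least 5 percentage points and 0 with at least 15. Those 27 were all at -5 or below, as were 14.3% of all listed tiles at any q. A q under 0.01 or the deposited p in place of q left 4. The 29 tiles past the q at any size also numbered 29 at a q under 0.01, with the deposited p and after Benjamini-Hochberg adjustment of it. These alternatives cover the member tiles alone. The shares of counted and passing tiles and genes over the whole table are given at the deposited q only. Only 8 tiles share no base, and 8 of them passed, so the lower count comes from fewer tiles. The median difference of -8.83 percentage points moved to -7.86 as the median over gene medians and to -7.87 without SEPTIN10, and lay between -8.95 and -8.10 under the other alternatives. No paired analysis was possible because the groups share no replicate number and the table holds no value of a single sample. The depth behind each tile is unknown.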
